A study of Mus musculus with 6 samples.

Results

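Astrocytes are the glial cells that take up glutamate released at synapses, turn it into glutamine, buffer potassium and water along blood vessels, and are joined to each other by gap junctions. Slc1a2 and Slc1a3 encode GLT-1 and GLAST, the main glial glutamate transporters. Glul encodes glutamine synthetase, which turns the glutamate taken up into glutamine. In the postnatal hippocampus GLT-1 levels climb as synapses form, while GLAST is already present in radial glia and young astrocytes. The 10 genes described here are these 3 with Aqp4 (the water channel of astrocyte endfeet), Gja1 and Gjb6 (connexins 43 and 30), Aldh1l1 (a folate enzyme used as an astrocyte marker), Gfap (an intermediate filament), S100b (a calcium-binding protein) and Aldoc (aldolase C, a glycolytic enzyme). They were chosen by name from the 24935 genes of the deposited table, were all present in it and all passed the filter on low values.

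C57BL/6 mouse pups and their dams were kept in room air or in 85% oxygen from P2 to P14 (P for postnatal day), and the left hippocampus was taken at P14. The comparison is 3 libraries labelled room air (air) against 3 labelled 85% oxygen (hyperoxia). The study used pups of both sexes, and no source used here gives the sex or litter of the sequenced mice. The dams shared the exposure, so an effect through the dam cannot be told apart from one on the pup. Library numbers are those of the deposited columns and are not tied to an animal, and every direction below follows the group named in the column.

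The libraries held from 30384052 to 38746972 reads on genes, recovered from the deposited values. The 8 markers of hippocampal principal neurons, the 8 of neurons in general and 35 further astrocyte genes were all detected. Of the first, 5 were called lower in hyperoxia and 1 higher, with sums of 47893 to 51947 in air and 33282 to 40297 in hyperoxia. Of the 8 of neurons in general, 3 were called higher and 3 lower. Their sums were 201094 to 205440 in air and 205410 to 214863 in hyperoxia. Over all genes tested, 14.9% were called higher and 15.6% lower. Hyperoxia library 2 stood apart from the other two of its group. It had the highest of the 3 hyperoxia values in 8 of the 10 astrocyte genes, against 40.2% of all genes tested, and the lowest only in Slc1a2, so values without this library are given where they change a call or direction or move a value that passed the test by over 1.5 times. Long transcripts were higher in hyperoxia over the whole table. The median log2 fold change was -0.16 over the 2863 tested genes with a longest transcript under 1500 bases and 0.31 over the 405 genes of 10000 bases or more. Values with the trend of a library on transcript length and on GC content taken out (the length and GC correction) are given under the same rule.

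The sequences just upstream of a RefSeq transcript start are shown for 4 of these genes. They set the glutamate transporter that rose (Slc1a2) beside the one that did not pass the test (Slc1a3). They also set a marker that rose (Aldh1l1) beside one that fell (S100b). Each is the 250 bases before a RefSeq transcript start on GRCm38.p6, read 5′ to 3′ on the strand of the gene, with matches to 4 motifs in capitals.
Slc1a2, chr2:102706188-102706437, plus strand: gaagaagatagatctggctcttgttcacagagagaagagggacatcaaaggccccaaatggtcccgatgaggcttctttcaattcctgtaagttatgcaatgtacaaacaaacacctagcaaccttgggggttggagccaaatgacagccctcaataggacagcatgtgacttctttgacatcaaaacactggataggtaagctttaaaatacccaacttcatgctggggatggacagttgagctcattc
Slc1a3, chr15:8710808-8711057, minus strand: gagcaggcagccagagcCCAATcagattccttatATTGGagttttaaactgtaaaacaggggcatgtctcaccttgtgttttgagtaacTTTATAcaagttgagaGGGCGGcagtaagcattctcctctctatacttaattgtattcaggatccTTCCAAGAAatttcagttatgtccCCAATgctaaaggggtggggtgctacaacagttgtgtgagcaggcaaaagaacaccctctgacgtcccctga
Aldh1l1, chr6:90550543-90550792, plus strand: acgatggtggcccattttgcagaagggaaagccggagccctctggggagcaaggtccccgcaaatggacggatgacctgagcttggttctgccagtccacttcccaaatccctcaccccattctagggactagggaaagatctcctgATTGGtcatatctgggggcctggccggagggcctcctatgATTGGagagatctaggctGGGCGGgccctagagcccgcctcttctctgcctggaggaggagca
S100b, chr10:76253586-76253835, plus strand: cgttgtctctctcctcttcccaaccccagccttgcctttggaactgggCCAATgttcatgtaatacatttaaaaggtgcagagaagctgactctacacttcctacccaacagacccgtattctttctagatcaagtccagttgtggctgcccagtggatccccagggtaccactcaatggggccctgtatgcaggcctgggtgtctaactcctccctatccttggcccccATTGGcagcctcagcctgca
Both strands were searched for TATAAA as the TATA box, for CCAAT as the CCAAT box, for GGGCGG as the GC box and for TTCNNNGAA as the STAT motif. The Slc1a2 and Aldh1l1 windows lie inside the longer genes of the GENCODE annotation, which begin at 102658659 and 90486427. They stand before a start within the gene, not before its first base. The Slc1a2 window held none of the motifs. The Slc1a3 window held a match to each of the 4, with 3 CCAAT matches. Aldh1l1 had 2 CCAAT matches and 1 GC box, and S100b had 2 CCAAT matches. Of all 32851 windows of this length, 12.4% held the TATA box, 33.8% the CCAAT box, 32.7% the GC box and 7.02% the STAT motif. Of the 9 genes with a window, 1, 4, 4 and 2 held them in the same order. Both STAT matches of Aldoc lay before the second of its RefSeq starts, at 124 and 83 bases upstream. These are letter matches only and were not measured as binding sites.

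Hyperoxia-exposed mice had higher Slc1a2, Aqp4 and Aldh1l1 mRNA and lower Aldoc and S100b mRNA than air-exposed mice, while Gfap, Slc1a3, Glul, Gja1 and Gjb6 did not pass the test. Aqp4 and Aldh1l1 passed under all 16 alternative settings, which are listed under the processing, Slc1a2 under 15, Aldoc under 10 and S100b under 8. The 3 genes that rose stood at 1.43 to 1.46 times the air mean, and the 2 that fell at 0.768 and 0.777 times. The test was limma on log2 of the normalized count plus 1, with Benjamini-Hochberg adjustment over all 17778 genes tested, and called means an adjusted p under 0.05. SE is the standard error of the log2 fold change, hyperoxia minus air. Of the 10 genes, 5 were called, 3 higher and 2 lower. Over all genes tested 30.5% were called, 14.9% higher and 15.6% lower. The count of 5, and the counts of each list below, are to be read against that share. The share was 30.9% in edgeR, which called 4 of the 10, 31.6% in DESeq2, which called 5, 34.7% after the length and GC correction, which called 5, and 43.6% without hyperoxia library 2, which called 5. The 5 after the length and GC correction took in Gja1 and left out Slc1a2. Under quantile normalization it was 30.2% and in limma without its trend 23.8%, and each called 3 of the 10. The median log2 fold change of the 10 genes was -0.03, against -0.0072 over all genes tested. In 6 of the 10 the groups did not overlap, hyperoxia above in 3 and below in 3, where 46.1% of all genes tested did not overlap, 22.3% above and 23.8% below. In bulk tissue, fewer cells of a type and less RNA per cell cannot be told apart.

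**Figure D1:**
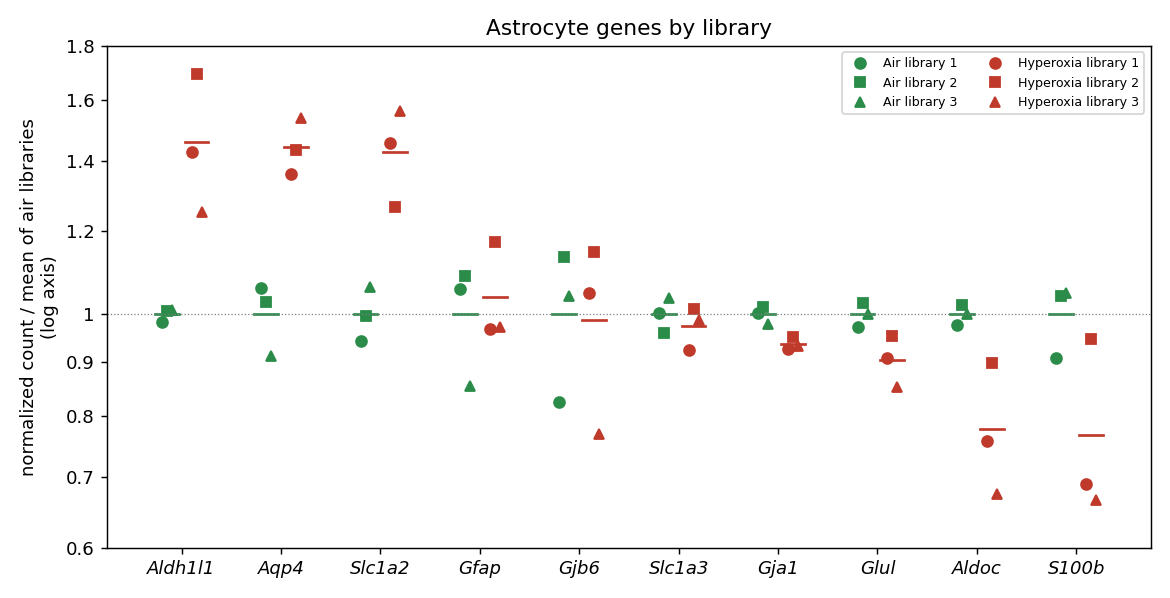
Normalized count of each gene in each library, divided by the mean of the 3 air libraries (log axis); green symbols are air, red symbols hyperoxia, shapes give the library number and short lines the group means. Hyperoxia lies above air without overlap in Aldh1l1, Aqp4 and Slc1a2 and below it without overlap in Gja1, Glul and Aldoc.

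Among the glutamate transporters, Slc1a2 (ENSMUSG00000005089.15, chromosome 2 from 102658659 to 102790784, plus strand, GENCODE M21 on GRCm38) had normalized counts of 98744, 104181 and 110995 in air libraries 1, 2 and 3 and of 152357, 132433 and 163351 in hyperoxia libraries 1, 2 and 3. Every hyperoxia library was above every air library, and library 2 was the closest to air. Air averaged 104640 ± 6138 (SD, n = 3) and hyperoxia 149380 ± 15672 (SD, n = 3), which is a log2 fold change of 0.51 (limma SE 0.11, adjusted p = 0.0080). It kept its call with any single library left out, with fold changes from 0.44 to 0.59. The size of this rise depended on the processing. Its longest transcript, at 11595 bases, is the longest of the 10, and after the length and GC correction the log2 fold change was 0.18 and no longer called (limma adjusted p = 0.10). Quantile normalization gave 0.86 (limma adjusted p = 8.1e-04).

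Slc1a3 (ENSMUSG00000005360.14, chromosome 15 from 8634124 to 8710764, minus strand) had normalized counts of 30834, 29497 and 31809 in air and 28386, 31075 and 30369 in hyperoxia. The groups overlapped. The log2 fold change was -0.04 (limma SE 0.08, 95% interval -0.21 to 0.14, adjusted p = 0.74), and the interval leaves out a change of the size measured for Slc1a2. None of 16 alternatives called it. Quantile normalization turned the direction, to 0.15 (limma adjusted p = 0.098). Within each library, Slc1a2 was 3.20, 3.53 and 3.49 times Slc1a3 in air and 5.37, 4.26 and 5.38 times in hyperoxia. The ratio, which no size factor affects, differed by 0.55 on the log2 scale without overlap of the groups (exact two-sided permutation p = 0.1, the smallest that 3 against 3 allows, 0.2 after adjustment over the 6 ratios tested, of which 5 are given), and by 0.31 after the length and GC correction.

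**Figure D2:**
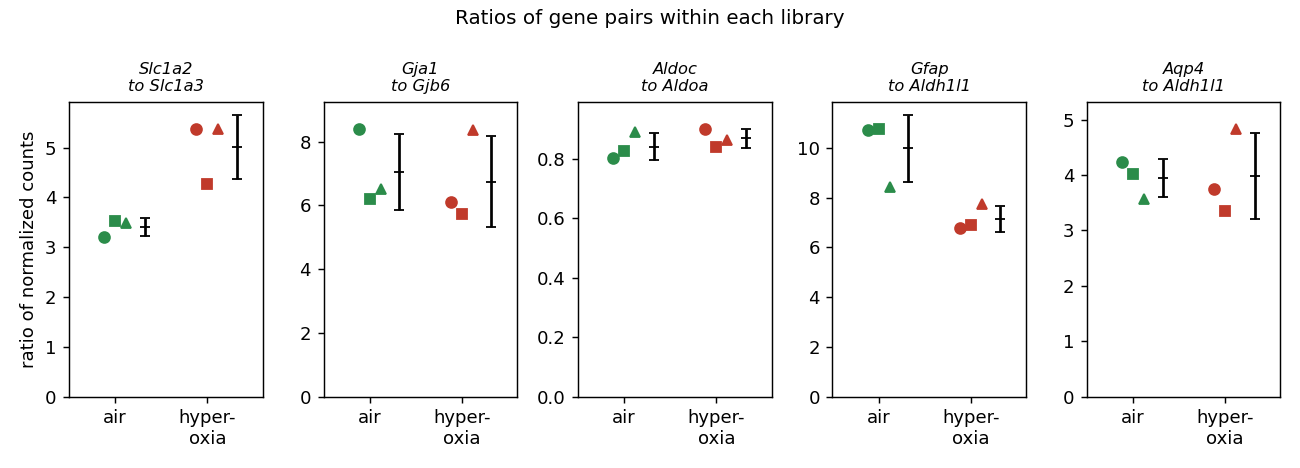
Ratio of the normalized counts of 5 gene pairs in each library (linear axes from 0); green is air, red hyperoxia, shapes give the library number and the black bars the mean ± SD of 3 libraries. The groups are apart for Slc1a2 to Slc1a3 and Gfap to Aldh1l1, and overlap for the other 3 pairs.

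Glul (ENSMUSG00000026473.15, chromosome 1 from 153899944 to 153909723, plus strand) had normalized counts of 57271, 60346 and 58846 in air and 53428, 56121 and 50207 in hyperoxia. All 3 hyperoxia values were below the air values, and the gap was small. The log2 fold change of -0.14 (SE 0.08, 95% interval -0.33 to 0.04) was not called (limma adjusted p = 0.21), nor was it under any of the 16 alternatives, and quantile normalization turned it to 0.11 (limma adjusted p = 0.24).

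Of 19 further genes of glutamate and glutamine handling, 4 were called higher, 1 lower and 14 not, with a median log2 fold change of 0.10. The share called over all genes tested was 30.5%. Glud1, the mitochondrial glutamate dehydrogenase, rose from 7218 ± 373 to 11850 ± 1290 (SD, n = 3 in each group), a log2 fold change of 0.71 (limma SE 0.09, adjusted p = 9.3e-04). Slc7a11, the cystine transporter that exports glutamate in exchange, rose by 0.70 (limma SE 0.10, adjusted p = 0.0016). Its change after the length and GC correction was 0.35 and still called (limma adjusted p = 0.0044). The neutral amino acid carrier Slc38a2 rose by 0.63 (limma SE 0.07, adjusted p = 6.9e-04) and Slc1a4, a neutral amino acid exchanger of the Slc1 family, by 0.37 (limma SE 0.09, adjusted p = 0.016). The gene called lower, named after its values were seen, was Slc1a1, the neuronal glutamate transporter EAAC1. It had 4345, 4696 and 4405 in air and 3764, 3843 and 3899 in hyperoxia, a log2 fold change of -0.22 (limma SE 0.07, adjusted p = 0.029). That call was lost when most single libraries were left out (2 of 6 kept it). Slc38a3, the astrocyte glutamine exporter SNAT3, had a log2 fold change of 0.22 and was not called (limma SE 0.08, adjusted p = 0.079). The length and GC correction gave 0.30, which was called (limma adjusted p = 0.0046), and leaving out hyperoxia library 2 gave 0.14 (limma adjusted p = 0.099). It too was named after its values were seen.

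Aqp4 (ENSMUSG00000024411.9, chromosome 18 from 15389496 to 15410982, minus strand) had normalized counts of 6507, 6311 and 5614 in air and 8354, 8813 and 9446 in hyperoxia. The groups did not overlap. Its log2 fold change of 0.53 (limma SE 0.08, adjusted p = 0.0019) held its call under all 16 alternatives and ranged from 0.47 to 0.57 when single libraries were left out. The length and GC correction gave a smaller value of 0.34 (limma adjusted p = 0.013). Among 16 genes of the perivascular endfoot, potassium and water handling, 4 were called higher and 2 lower, with a median of 0.14. Slc4a4, the sodium bicarbonate cotransporter NBCe1, rose by 0.39 (limma SE 0.07, adjusted p = 0.0029) and Dmd, whose dystrophin product anchors the endfoot complex, by 0.35 (limma SE 0.10, adjusted p = 0.025). Neither was called after the length and GC correction, which gave 0.14 for Slc4a4 and -0.06 for Dmd. Atp1b2, a beta subunit of the sodium pump found in astrocytes, fell by 0.35 on the log2 scale (limma SE 0.10, adjusted p = 0.031). Aqp1 rose from 17.0, 14.2 and 12.3 to 45.1, 34.0 and 63.7, a log2 fold change of 1.61 (limma SE 0.29, adjusted p = 0.0036). Aqp1 is the water channel of the choroid plexus, and the 7 choroid plexus markers summed to 578 to 1455 in air and to 520 to 8224 in hyperoxia, with the highest sum in hyperoxia library 3, which also had the most Aqp1. Hyperoxia libraries 1 and 2, at sums of 758 and 520, were below air library 3, at 1455, but had more Aqp1 than any air library, and air library 3 had the least Aqp1. None of the 7 was at 0 in all libraries, and their part in the Aqp1 result was not tested.

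Aldh1l1 (ENSMUSG00000030088.15, chromosome 6 from 90486427 to 90600203, plus strand) had normalized counts of 1534, 1571 and 1575 in air, a narrow range, and 2228, 2638 and 1954 in hyperoxia. Each hyperoxia library was above the air range. It rose by 0.53 on the log2 scale (limma SE 0.10, adjusted p = 0.0052), it was called under all 16 alternatives, and the length and GC correction left it at 0.55 (limma adjusted p = 0.0012). Without hyperoxia library 2 it was 0.42. Aldh1l1 and Aqp4 had nearly the same fold change before the length and GC correction, and 0.55 against 0.34 after it. Their ratio in a library was 4.24, 4.02 and 3.56 in air and 3.75, 3.34 and 4.84 in hyperoxia, which overlap (log2 difference -0.0010, exact two-sided permutation p = 1, and -0.21 after the correction).

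Neither astrocyte connexin gene was called. Gja1 (ENSMUSG00000050953.10, chromosome 10 from 56377330 to 56402513, plus strand) had 13143, 13308 and 12828 in air and 12124, 12462 and 12218 in hyperoxia, lower in every hyperoxia library, with a hyperoxia mean of 0.937 times the air mean. Its change of -0.09 (limma SE 0.06, 95% interval -0.24 to 0.05, adjusted p = 0.30) was not called. It was called at -0.21 after the length and GC correction (limma adjusted p = 0.029). Gjb6 (ENSMUSG00000040055.8, chromosome 14 from 57123303 to 57133611, minus strand) had 1563, 2148 and 1970 in air and 1984, 2170 and 1458 in hyperoxia. Its change was -0.03 (limma SE 0.16, 95% interval -0.38 to 0.33, adjusted p = 0.92), with the largest SE of the 10 genes, and its sign depended on the library left out and turned to 0.039 after the length and GC correction. The ratio of Gja1 to Gjb6 overlapped between the groups, with 6.20 to 8.41 in air and 5.74 to 8.38 in hyperoxia (exact two-sided permutation p = 0.5, adjusted 0.6).

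Of the 10 other connexins and pannexins, 3 were called higher and 3 lower. Gjb1, connexin 32 of oligodendrocytes, fell by 1.22 on the log2 scale (limma SE 0.16, adjusted p = 0.0011). Gja4, connexin 37 of arterial endothelium, rose by 0.83 (limma SE 0.17, adjusted p = 0.0072) and Gjd2, connexin 36 of neurons, by 0.71 (limma SE 0.11, adjusted p = 0.0017). Of the 8 oligodendrocyte markers 7 were called lower, and their summed normalized count was 217623 to 330867 in air and 149331 to 182355 in hyperoxia. Of the 7 endothelial markers 3 were called higher and 2 lower, with sums of 7836 to 8208 in air and 8231 to 9482 in hyperoxia. The part of these cells in the connexin results was not tested.

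S100b (ENSMUSG00000033208.7, chromosome 10 from 76253853 to 76261159, plus strand) had normalized counts of 2757, 3159 and 3177 in air and 2092, 2873 and 2018 in hyperoxia. Hyperoxia library 2 was above air library 1, so the groups overlapped. The log2 fold change of -0.40 (SE 0.13) was called (limma adjusted p = 0.043) near the threshold, and only 8 of the 16 alternatives called it. It was -0.56 without hyperoxia library 2 (limma adjusted p = 2.5e-04) and was not called with any other single library left out. S100b is also made by oligodendrocytes, whose summed markers, given above, were lower in hyperoxia without overlap. In air, library 1 had the lowest sum and the least S100b. In hyperoxia, library 1 had the lowest sum, 149331, but more S100b than library 3. Hyperoxia libraries 2 and 3, at sums of 182355 and 181977, had S100b of 2873 and 2018. The part of oligodendrocytes in the S100b result was not tested. Of 12 intermediate filament and S100 genes, 11 were tested, 4 were called higher and 1 lower, with a median of 0.28. S100a1, a calcium-binding protein of neurons and muscle, fell by 0.53 (limma SE 0.14, adjusted p = 0.021), while S100a10 rose by 0.52 (limma SE 0.14, adjusted p = 0.021) and S100a16 by 0.41 (limma SE 0.13, adjusted p = 0.038). S100a16 was at 0.25 without hyperoxia library 2 (limma adjusted p = 0.018), and S100a1 at -0.33 after the length and GC correction (limma adjusted p = 0.027).

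Aldoc (ENSMUSG00000017390.15, chromosome 11 from 78322968 to 78327781, plus strand) had normalized counts of 34674, 36181 and 35502 in air and 26864, 31858 and 23947 in hyperoxia. The air libraries lay close together and all above hyperoxia, of which library 2 was the nearest. Aldoc fell by 0.37 on the log2 scale (limma SE 0.10, adjusted p = 0.024) and was called under 10 of the 16 alternatives. Quantile normalization gave -0.20 (limma adjusted p = 0.17), and only 2 of the 6 fits with a library left out called it, with fold changes from -0.48 (without hyperoxia library 2, limma adjusted p = 3.8e-04) to -0.28. Aldoa, the aldolase of muscle and most other tissues, neurons included, fell as well, from 42230 ± 2107 to 31824 ± 5368 (SD, n = 3 in each group), a log2 fold change of -0.42 (limma SE 0.12, adjusted p = 0.023) and of -0.24 after the length and GC correction (limma adjusted p = 0.025). Aldoc was 0.804, 0.827 and 0.891 times Aldoa in air and 0.901, 0.840 and 0.863 times in hyperoxia, which overlap (exact two-sided permutation p = 0.4, adjusted 0.6). Of 16 genes of aldolases and astrocyte energy metabolism, Aldoa included, 3 were called higher and 3 lower. Slc16a1, the lactate transporter MCT1, rose by 0.64 (limma SE 0.07, adjusted p = 5.4e-04), Aldh1l2, the mitochondrial relative of Aldh1l1, by 0.47 (limma SE 0.15, adjusted p = 0.036), and Acsl3, which activates fatty acids, fell by 0.50 (limma SE 0.09, adjusted p = 0.0033). The length and GC correction left Aldh1l2 at 0.31 and no longer called (limma adjusted p = 0.10).

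Gfap (ENSMUSG00000020932.14, chromosome 11 from 102887336 to 102900912, minus strand), the filament whose rise is the usual sign of reactive astrocytes, had normalized counts of 16446, 16917 and 13287 in air and 15067, 18223 and 15127 in hyperoxia. The lowest value was in air library 3 and the highest in hyperoxia library 2, and the groups overlapped. A change of 0.06 on the log2 scale (limma SE 0.11, 95% interval -0.20 to 0.31, adjusted p = 0.73) did not reach its SE, was called under none of the 16 alternatives, and turned to -0.03 without hyperoxia library 2 and to -0.05 without air library 3. The study stained other mice at P14 and reported a larger GFAP-stained share of the CA1 area after hyperoxia. That is protein in a part of the hippocampus, whereas these values are mRNA of the whole left hippocampus. Relative to Aldh1l1, Gfap was lower in every hyperoxia library, at 6.76, 6.91 and 7.74 times Aldh1l1 against 10.7, 10.8 and 8.44 times in air (log2 difference -0.48, exact two-sided permutation p = 0.1, adjusted 0.2), and -0.39 after the length and GC correction. Aldh1l1 itself rose by 0.53 on the log2 scale, so this difference restates the rise of Aldh1l1 and is no fall of Gfap. Vim, the filament protein vimentin of young astrocytes, endothelium and fibroblasts, rose from 1413, 1572 and 1471 to 1973, 2925 and 2206 without overlap, a log2 fold change of 0.65 (limma SE 0.13, adjusted p = 0.0056). The summed markers of meningeal fibroblasts, which also make vimentin, were 6952 to 8721 in air and 8363 to 13182 in hyperoxia. They were highest in hyperoxia library 2, as Vim was. Hyperoxia library 3, at a sum of 8363, had more Vim than hyperoxia library 1, at 11644. Air library 1, at 8721, had the least Vim. The part of meningeal fibroblasts in the Vim result was not tested.

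**Figure D3:**
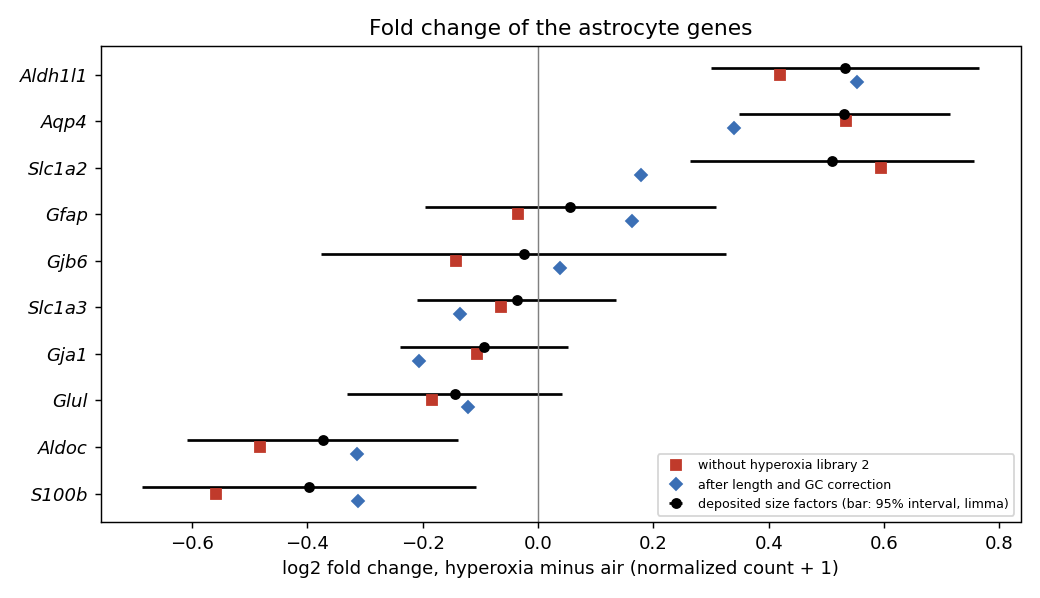
Log2 fold change of each gene, hyperoxia minus air: black circles are the deposited values with the 95% interval of limma, red squares leave out hyperoxia library 2 and blue diamonds follow the length and GC correction. The correction moves Slc1a2 most, from 0.51 to 0.18, while Aldh1l1 goes from 0.53 to 0.55.

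Of 34 genes known to rise in reactive astrocytes, 32 were tested, 6 were called higher, 4 lower and 22 not, with a median log2 fold change of -0.0021. Steap4, a metalloreductase, rose by 1.47 (limma SE 0.38, adjusted p = 0.018) from a low level of 5.63 ± 1.51 to 17.4 ± 4.29 (SD, n = 3 in each group). Cd44, a hyaluronan receptor, rose by 1.14 (limma SE 0.22, adjusted p = 0.0050) and Sphk1, a sphingosine kinase, by 0.97 (limma SE 0.23, adjusted p = 0.013). Iigp1, an interferon-induced GTPase, fell by 0.94 (limma SE 0.16, adjusted p = 0.0028). Among the others called lower, Serpina3n fell from 2922 ± 259 to 1566 ± 301 (SD, n = 3 in each group). This is a log2 fold change of -0.91 (limma SE 0.13, adjusted p = 0.0015). Ptgs2 fell by 0.89 (limma SE 0.15, adjusted p = 0.0030). Both were called under all 16 alternatives and were named after their values were seen. The list holds genes of other cells as well. Of the 6 meningeal fibroblast markers 4 were called higher, and of the 8 microglial markers 2, with none of either called lower. Of the 8 oligodendrocyte markers 7 were called lower and none higher. Of the 8 markers of hippocampal principal neurons 5 were called lower and 1 higher. Over all genes tested, 14.9% were called higher and 15.6% lower. The microglial markers went both ways, with 5 of the 8 fold changes above 0. The part of other cells in the results of this list was not tested.

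The 35 other astrocyte genes also went both ways, with 8 called higher, 7 lower and 20 not, and a median log2 fold change of 0.02. Chrdl1, an astrocyte-secreted BMP antagonist, had 121, 109 and 92.4 in air and 538, 439 and 333 in hyperoxia, a log2 fold change of 1.99 (limma SE 0.18, adjusted p = 3.1e-04). Fabp7, the brain fatty acid binding protein of radial glia and young astrocytes, rose by 1.22 (limma SE 0.16, adjusted p = 9.8e-04). Fxyd1, a regulator of the sodium pump, fell by 0.84 (limma SE 0.10, adjusted p = 8.8e-04) and Mt3, the metallothionein of brain, by 0.82 (limma SE 0.14, adjusted p = 0.0029). These 4 were called under all 16 alternatives, with Mt3 at -0.54 after the length and GC correction. Apoe, which is also made by microglia, was not called, at -0.33 (limma SE 0.14, adjusted p = 0.10), and was named after its values were seen. Without hyperoxia library 2 it was called at -0.50 (limma adjusted p = 4.2e-04), and the length and GC correction gave -0.14 (limma adjusted p = 0.23).

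**Figure D4:**
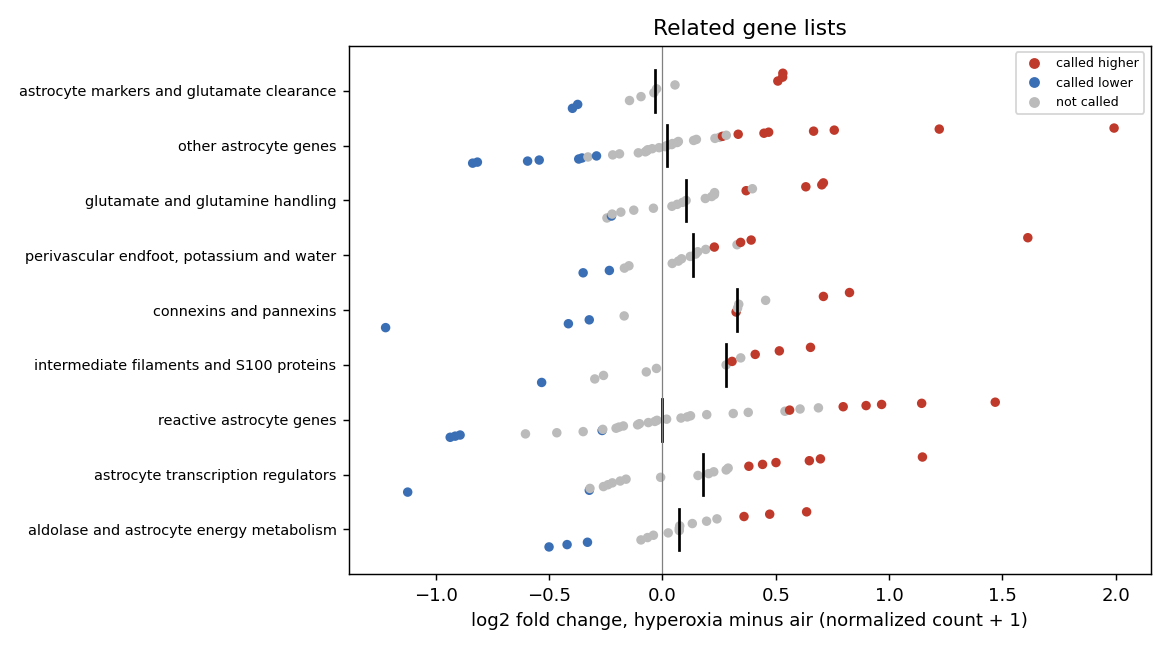
Log2 fold change of each tested gene, hyperoxia minus air, by list, with red for genes called higher, blue for called lower, grey for not called, and a black line at the median of the list. Every list holds genes called in both directions, and the medians lie between -0.03 and 0.33.

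Among 20 transcription and signalling regulators of astrocytes, 6 were called higher and 2 lower, with a median of 0.18. Socs3, the feedback inhibitor of STAT3 signalling, rose from 65.9, 58.0 and 59.5 to 143, 144 and 124, a log2 fold change of 1.15 (limma SE 0.15, adjusted p = 9.8e-04). The Notch target Hes1 rose by 0.70 (limma SE 0.13, adjusted p = 0.0038) and Id1, a target of BMP signalling, by 0.65 (limma SE 0.12, adjusted p = 0.0036). Nkx6-2 fell by 1.12 (limma SE 0.16, adjusted p = 0.0016). It is a factor of oligodendrocytes, whose lower markers are given above. The part of oligodendrocytes in the Nkx6-2 result was not tested.

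Compared per kilobase of the longest annotated transcript, the level order in air was Glul, Aldoc, Slc1a2, Slc1a3, Gfap, Gja1, S100b, Aqp4, Gjb6 and Aldh1l1, and no neighbours in that order overlapped over the 3 air libraries. Glul stood at 21068 ± 551 and Aldh1l1 at 374 ± 5.40 normalized counts per kilobase (SD, n = 3). In hyperoxia, Slc1a2, at 12883 ± 1352 per kilobase, stood before Aldoc, at 9891 ± 1436, and Aqp4, at 1755 ± 109, before S100b, at 1569 ± 319. Both of these pairs overlapped over the hyperoxia libraries, as did Slc1a3 and Gfap. Together the 10 genes summed to normalized counts of 263474 to 275603 in air and 298666 to 310095 in hyperoxia. Slc1a2 made up 37.5% to 40.3% of the sum in air and 44.3% to 52.7% in hyperoxia. Without Slc1a2 the sums were 164608 to 169438 in air and 146744 to 166233 in hyperoxia.

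**Figure D5:**
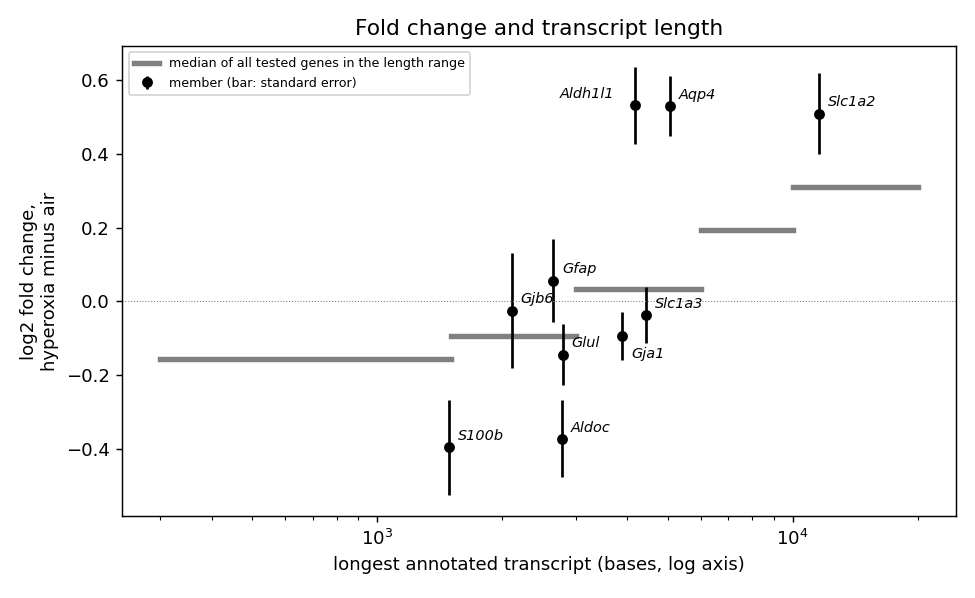
Log2 fold change, hyperoxia minus air, against the length of the longest annotated transcript (log axis) for the 10 genes (points with standard errors) beside the median of all tested genes in 5 length ranges (grey lines). Slc1a2 lies in the range with the highest median, 0.31, whereas Aldh1l1 and Aqp4 lie above a range median of 0.03.

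Neighbours in pattern were taken as the tested genes with the smallest Euclidean distance from a gene over the 6 libraries, on log2 values centred per gene. The distance takes in the difference between the groups, so a fold change near that of the gene follows from the choice. For Slc1a2 these were Eml4 (distance 0.05), Tgoln1 (0.05) and Washc4 (0.06), which rose by 0.52, 0.51 and 0.49. For Gfap they were Commd10 (0.08), Ddx39 (0.10) and Zfp868 (0.11), with log2 fold changes of 0.04, 0.05 and 0.03.

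Most of the 10 genes share few exon bases with other genes. Slc1a2 shares 189 of 13133 exon bases with a gene on the other strand that had a mean normalized count of 2.33, and Glul shares 116 of 3323 with Teddm2 on the other strand, at 80.6. Aldh1l1 shares 499 of 4516 with a gene on the other strand at 1.53. It shares a further 105 with one on its own strand at 0.853. No source used here says whether reads were counted by strand.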

How the data were processed

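RNA of the left hippocampus was made into strand-specific polyA libraries and read as paired ends of 75 bases. The submitters' processing notes name FastQC, STAR 2.5.3a, HTSeq and DESeq2. No source used here gives the genome build or annotation. The authors deposited 1 signal value per gene and library, a read count divided by the DESeq2 size factor of the library. Reads were recovered by dividing by what 1 read is worth in each library, which gave whole numbers (tolerance 0.01) for 100% of values. The authors' own fold changes and p-values were not used.

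The 17778 of 24935 genes whose mean over the 6 libraries reached 10 were tested, hyperoxia minus air, on log2 of the value plus 1 by limma 3.58.1 in R 4.3.3, using its trend option. This understates the change of low genes. The alternatives were edgeR 4.0.16 (quasi-likelihood) and DESeq2 1.42.0 on recovered reads, a pseudocount of 0.5 or 5, the filter dropped or raised to 50, TMM scaling, quantile normalization, limma without its trend, a length and GC correction (mgcv 1.9.3, 17735 genes) and each library left out. Scripts were tested on simulated data. Ratios were tested by exact permutation with scipy 1.17.1. A result planned for 1 ratio and a gene that the naming rule would give are not reported here. Positions and lengths are from GENCODE M21 (GRCm38), which holds 99.7% of the identifiers. Promoters are from RefSeq (GRCm38.p6), matched by symbol for 9 of the 10 genes.

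The genes, lists and tests were chosen with earlier results of these data known. The genes named are the 10, up to 4 called genes with the largest change per list, the ratio partners, and the 3 nearest neighbours of Gfap and Slc1a2. The labels do not say whether the mice came from separate litters, so p-values measure the spread between these libraries.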

Additional observations from a re-analysis of the deposited data

How the results depend on the processing

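Aqp4 and Aldh1l1 were called under all 16 alternatives, and Slc1a2 under 15 of them. The test of hyperoxia minus air across all genes gave 5425 calls, and 3048 to 7756 with a library left out. The 5 calls among the 10 genes became 3 under quantile normalization and 3 in limma without the trend, and 3 to 5 with a library left out. The count was 3 without air library 1, 2 or 3 or hyperoxia library 1, and S100b and Aldoc were the calls lost. After the length and GC correction the count stayed at 5, with Gja1 called and Slc1a2 not. Of the called list genes named, Dmd, Atp1b2 and Aldh1l2 kept their call in 1 of the 6 fits with a library left out (without hyperoxia library 2). Aldoa, S100a1 and Slc1a1 kept it in 2 (without hyperoxia library 2 or 3), as did Steap4 (without air library 2 or hyperoxia library 2). S100a10 and S100a16 kept it in 3 (without any 1 hyperoxia library). Slc1a4 lost it without air library 2 or 3 and Sphk1 without air library 1 or hyperoxia library 1, and the others lost it in none. The 5 calls among the genes of glutamate and glutamine handling became 3 in limma without the trend, 8 in DESeq2, 9 after the length and GC correction and 3 to 8 with a library left out, and the lowest was reached without air library 2 or 3 and the highest without hyperoxia library 2. The 15 calls among other astrocyte genes ranged from 11 to 18.

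Among the 10 genes and the ratios, directions turned only in those not called. Quantile normalization turned Slc1a3 to 0.15 and Glul to 0.11, and the length and GC correction turned Gjb6 to 0.039 and the ratio of Aldoc to Aldoa to -0.073 (log2 scale). With a library left out, Gfap ranged from -0.053 to 0.12, Slc1a3 from -0.066 to 0.0010, Gjb6 from -0.16 to 0.14, the ratio of Gja1 to Gjb6 from -0.24 to 0.066 and the ratio of Aqp4 to Aldh1l1 from -0.15 to 0.12. The cause was not tested.

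No paired analysis was possible because the labels give every animal its own number and the column numbers are not tied to animals. With the column number as a replicate block, 8 genes of glutamate and glutamine handling were called, and 5 of the 10 genes as before. The correlation of the deviations of equal column numbers was -0.08, 0.13 and 0.10, and that of unequal numbers ranged from -0.29 to 0.26. With 3 libraries per group, these values cannot decide whether the numbers pair the libraries. Each of the 10 genes had a normalized count of at least 1458 in every library, so 3 libraries per group, more than depth, limit the precision.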
